A study of Mus musculus with 6 samples.

Results

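The expression of 10 iron-handling genes was compared in cultured mouse endothelium of brain microvessels (BMVECs), with and without the cytokine IL-36β. They were chosen by symbol from the deposited expression table, and all 10 were found among its 54532 genes: Lcn2 (iron sequestration), Tfrc, Slc11a2, Steap3 and Steap4 (import and ferric reduction), Fth1 and Ftl1 (storage), Slc40a1 and Cp (export), and Hmox1 (haem breakdown). One group, called IL-36β here, was wild-type cells of C57BL/6J mice exposed for 24 h to 100 ng/ml of processed IL-36β, which the titles call DEVD mIL-36β. The other was wild-type cells of the same strain left untreated. Both came from digested brain vessel fragments that were first selected with puromycin and then grown to confluence without it, so neither group is freshly isolated endothelium. The titles give the untreated cells neither a time nor a vehicle, so the cytokine cannot be told apart from either.

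Each group had 3 poly(A) RNA libraries, with 15180389 to 19544689 reads in genes per library. Nothing in the labels ties a library to its own animal or culture, so every p-value reflects only the spread among these libraries, which may be technical. Expression is given as FPKM, fragments scaled for gene length and library size, which allows levels of different genes to be compared. The library names carry letters, and libraries lettered A and B (IL-36β replicate 1, untreated replicates 1 and 2) stood apart from those lettered D and E (IL-36β replicates 2 and 3, untreated replicate 3) in 220 genes. Lcn2 was one of these, 3.80-fold higher in A and B at equal treatment (limma adjusted p = 0.0358), so within-set folds and a fit that includes the set as a term are given next to pooled values. Recognition of the sets came from these same data, so p-values that use them may overstate the evidence.

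The endothelial markers had a similar summed level in both groups. The 17 genes summed to 3479 to 4297 FPKM in IL-36β libraries and 3489 to 3816 FPKM in untreated libraries. Of the 16 tested, 0 passed in limma. The sum rests on abundant genes such as Cdh5 and does not describe each marker. Slco1c1 reached at most 0.373 FPKM and Mfsd2a at most 2.44 FPKM in any library. Tek did not overlap, at 11.9 to 17.5 FPKM in IL-36β libraries and 8.36 to 11.3 FPKM in untreated libraries. Flt1 lay lower in IL-36β libraries with overlap, at 13.2 to 17.2 FPKM against 16.2 to 21.8 FPKM. Neutrophils and macrophages are known sources of Lcn2. The 12 neutrophil markers summed to 0.158 to 1.44 FPKM in IL-36β libraries and 0.175 to 0.871 FPKM in untreated libraries, and S100a9, Retnlg, Mpo and Mmp8 had no read in any library. The 13 microglia and macrophage markers summed to 7.01 to 9.49 FPKM in IL-36β libraries and 7.13 to 7.88 FPKM in untreated libraries, with Adgre1, C1qa and Tyrobp at 0; most of that sum was Cd68, a lysosomal gene. The 11 pericyte and smooth muscle markers, led by Acta2, summed to 376 to 829 FPKM in IL-36β libraries and 423 to 1401 FPKM in untreated libraries. The part of these other cell types in the results was not tested. In these bulk libraries fewer cells of a type and less RNA per cell cannot be told apart.

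Cells take up transferrin-bound iron through the transferrin receptor, encoded by Tfrc. In the endosome, ferric iron is reduced by STEAP ferrireductases and leaves through the divalent metal transporter DMT1, encoded by Slc11a2. Iron that is not used is stored in ferritin, a shell of heavy (Fth1) and light (Ftl1) chains, or exported by ferroportin (Slc40a1) and oxidised for loading onto transferrin by ceruloplasmin (Cp). Brain capillary endothelium is the main route by which plasma iron reaches the brain. Lipocalin-2, the product of Lcn2, binds iron-loaded siderophores and is secreted in infection and inflammation. Heme oxygenase-1 (Hmox1) frees iron from haem.

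The mRNAs of several of these genes carry iron-responsive elements, short hairpins that bind the iron regulatory proteins. Bound at the start of an mRNA they block translation; bound at its end, as in Tfrc, they protect the mRNA from decay. Such control acts largely on translation for ferritin and ferroportin, which mRNA levels do not report. The elements are shown because their place in the mRNA sets the import gene Tfrc apart from the storage genes and the export gene Slc40a1. GENCODE M21 transcripts (GRCm38) were searched for the loop CAGTGN (N other than G) closed by 5 base pairs with a C bulge below them and at least 4 of 6 further pairs, G-T pairs allowed. The search matched 4 of the 10 genes. Of 21877 protein-coding genes, these 4 included, 6 had a match in the 5′ UTR and 11 in the 3′ UTR. The elements of these 4 were known beforehand, so the counts are a description only. The capitals mark the loop in each 29-base element, written 5′ to 3′ on the gene's strand.
Fth1, 5′ UTR, chr19:9982732-9982760, plus strand: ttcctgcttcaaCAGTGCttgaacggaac
Ftl1, 5′ UTR, chr7:45459779-45459807, minus strand: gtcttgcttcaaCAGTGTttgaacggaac
Slc40a1, 5′ UTR, chr1:45925465-45925493, minus strand: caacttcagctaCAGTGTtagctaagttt
Tfrc, 3′ UTR, chr16:32631219-32631247, plus strand: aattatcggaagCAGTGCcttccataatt
Tfrc, 3′ UTR, chr16:32631598-32631626, plus strand: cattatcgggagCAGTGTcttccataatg
Tfrc, 3′ UTR, chr16:32631663-32631691, plus strand: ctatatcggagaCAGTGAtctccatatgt
Tfrc, 3′ UTR, chr16:32631710-32631738, plus strand: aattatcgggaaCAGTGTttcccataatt
The Fth1 and Ftl1 hairpins have nearly the same letters, and the Tfrc elements lie close together in its 3′ UTR. No match in the other genes says only that this strict pattern is not there. Slc11a2 is known to make mRNAs with and without an element at the 3′ end, and the deposited values are per gene, so these forms are counted together.

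Comparing IL-36β with untreated cells asked how the expression of these genes responded to the cytokine. Transcripts for one importer, Slc11a2, rose 1.81-fold. Lcn2 was 20.0-fold higher, Steap4 7.59-fold and Cp 1.63-fold, without overlap of the groups, but these 3 missed the pooled threshold. The storage genes, ferroportin, Steap3 and Hmox1 had fold changes between 0.92 and 1.27 whose intervals included 1, and Tfrc stood at 0.76. Fold changes are on the scale of FPKM + 0.5, which understates the change of low genes. Of the 10 genes 1 passed (limma, Benjamini-Hochberg adjusted p under 0.05 over all 12618 genes tested), where 0.182% of all genes tested passed and 0.166% passed as higher. An unadjusted p under 0.05 was reached by 4 of the 10, against 10.4% of all genes tested. The groups did not overlap for 4 of the 10, with IL-36β higher each time, where 16.2% of all genes tested did not overlap and 8.95% had IL-36β higher. The fold was above 1 for 7 of the 10 and for 50.5% of all genes tested. Steap4 is in each of these counts of 4 and 7. It met the filter on low values (FPKM of 0.5 or more in 3 libraries) through the group where it is high, so it adds nothing to them. The genes were chosen with earlier results of these data known, so these shares are a description.

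**Figure D1:**
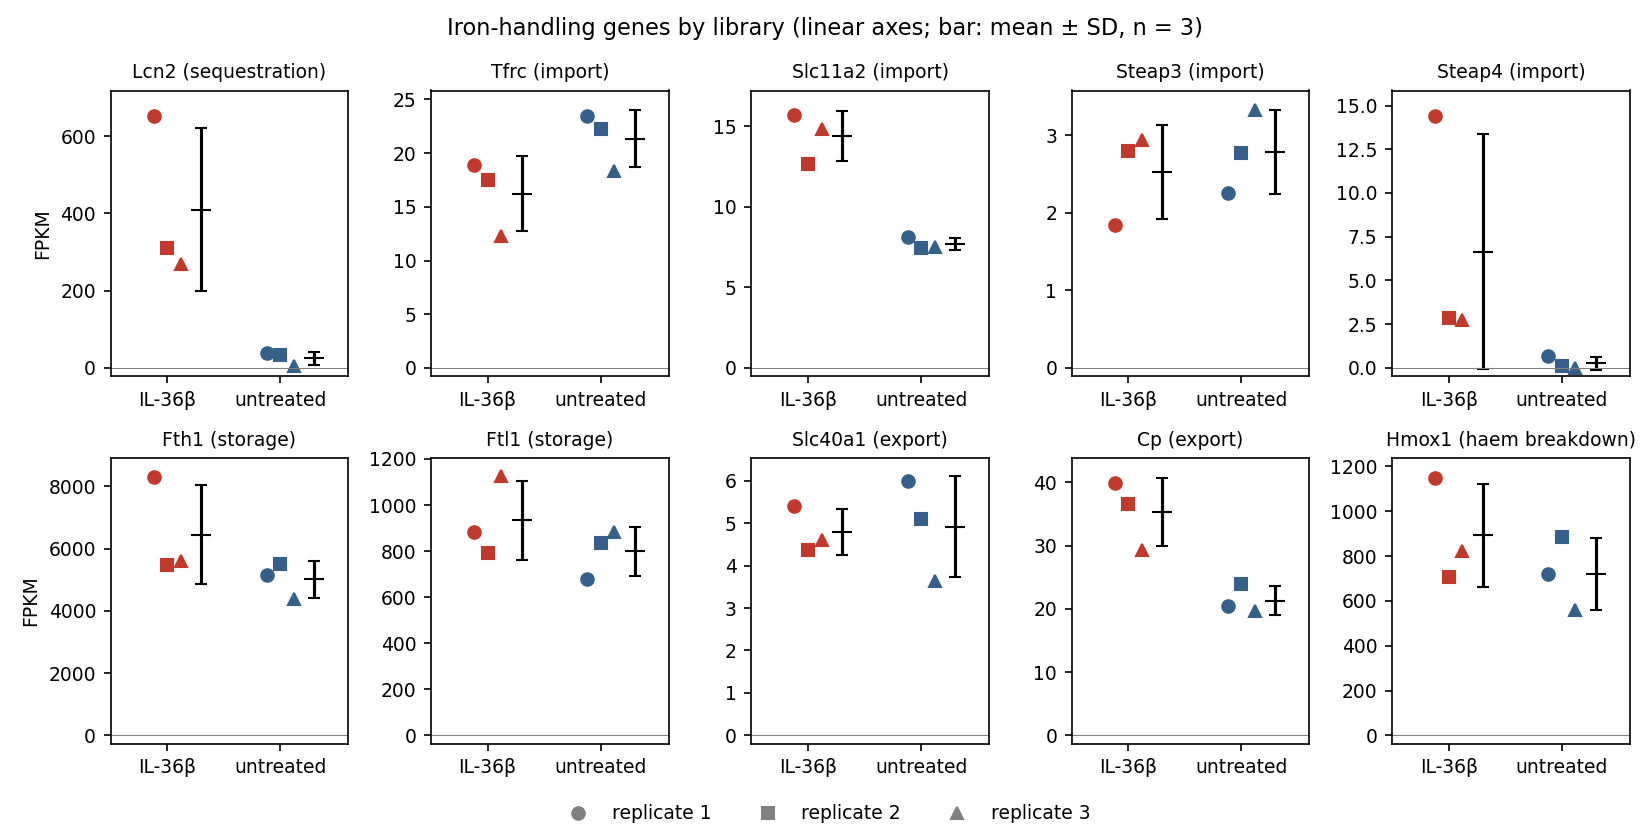
FPKM of the 10 iron-handling genes in each library on linear axes with a grey line at 0, IL-36β left and untreated right, with replicates 1 to 3 as circle, square and triangle and the mean ± SD (n = 3) as a bar. The groups do not overlap for Lcn2, Slc11a2, Steap4 and Cp; Lcn2 stood at 269 to 652 FPKM in IL-36β libraries and at 5.01 to 37.3 FPKM in untreated libraries.

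Lcn2 (chromosome 2, 32384633 to 32388252, minus strand, GRCm38) was at 652, 309.9 and 269 FPKM in IL-36β replicates 1 to 3, against 37.3, 32.2 and 5.01 FPKM in untreated replicates 1 to 3. Every IL-36β library was above every untreated library, but both groups spread widely. Among all 54532 genes Lcn2 ranked 43rd to 127th by FPKM in IL-36β libraries and 1278th to 6984th in untreated libraries. The pooled difference was 20.0-fold (95% confidence interval 6.19 to 64.7; limma adjusted p = 0.106). With the library set as a term it was 31.2-fold (18.8 to 51.7; limma adjusted p = 0.0026), and it passed in DESeq2 (adjusted p = 3.69e-04). The lowest untreated library, replicate 3, belongs to set D and E: without it the pooled fold was 10.8 (limma adjusted p = 0.0520), and the fold was 18.6 within A and B and 52.5 within D and E.

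The receptors known for lipocalin-2 were both low. Slc22a17, described as its receptor, averaged 0.376 ± 0.0641 FPKM in IL-36β libraries and 0.348 ± 0.230 FPKM in untreated libraries (SD, n = 3 each) and was below the filter on low values. Lrp2, the endocytic receptor megalin, stood at 0.610, 0.102 and 0.102 FPKM in IL-36β libraries, against 1.67, 3.14 and 0.861 FPKM in untreated libraries. Its groups did not overlap, and its fold of 0.33 (0.18 to 0.64) missed the threshold (limma adjusted p = 0.240; adjusted p = 0.0898 with the library set as a term). Lrp2 met the filter on low values through the untreated libraries, where it is high, and IL-36β replicate 1, so the filter favoured a difference here. Lrp2 was 0.39-fold within A and B and 0.44-fold within D and E.

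Among the import genes Slc11a2 (chromosome 15, 100387898 to 100425072, minus strand) had the tightest replicates. It was at 15.7, 12.7 and 14.8 FPKM in IL-36β libraries, against 8.14, 7.44 and 7.48 FPKM in untreated libraries. All 3 IL-36β libraries were well above all 3 untreated libraries. Slc11a2 rose 1.81-fold (95% confidence interval 1.52 to 2.16; limma adjusted p = 0.0392). The rise was 1.96-fold within A and B and 1.78-fold within D and E, and it also passed in edgeR (adjusted p = 0.0168) and DESeq2 (adjusted p = 6.11e-08). The size of the rise stayed between 1.74-fold and 1.93-fold over all alternative settings, but the call needed all 6 libraries: with any 1 left out the limma adjusted p was 0.0838 to 0.219. The limma adjusted p was also above 0.05 with TPM (0.0625) and with no filter on low values (0.121). It was above 0.05 as well with a replicate block by library letter (0.0520, libraries A and D only) or by title number (0.0750). Neither is known to pair the libraries.

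Tfrc (chromosome 16, 32608920 to 32632794, plus strand), the other import gene at a similar level, was at 18.9, 17.5 and 12.3 FPKM in IL-36β libraries, against 23.4, 22.3 and 18.3 FPKM in untreated libraries. The highest IL-36β library lay just above the lowest untreated one, so the groups overlapped. The fold was 0.76 with an interval of 0.57 to 1.01 (limma adjusted p = 0.490), and 0.83 within A and B and 0.81 within D and E. Set against Tfrc, Slc11a2 was at 0.919 ± 0.254 times the FPKM of Tfrc in IL-36β libraries and at 0.363 ± 0.0396 times in untreated libraries (SD, n = 3 each).

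Of the ferrireductases, Steap4 did not overlap between the groups and Steap3 did. Steap4 (chromosome 5, 7960457 to 7982213, plus strand), a reductase of the plasma membrane and endosomes, was at 14.4, 2.83 and 2.74 FPKM in IL-36β libraries, against 0.703, 0.110 and 0 FPKM in untreated libraries. These rest on 704, 147 and 157 reads in IL-36β libraries and on 36, 7 and 0 reads in untreated libraries; a count of 0 reads in untreated replicate 3 allows up to 0.0618 FPKM, counting error only. IL-36β replicate 1 stood far above the others. Steap4 passed the filter on low values in all IL-36β libraries and in untreated replicate 1 alone, so the filter itself favoured a difference. The pooled fold was 7.59 (2.80 to 20.6; limma adjusted p = 0.172), and 4.59 without IL-36β replicate 1. With the library set as a term it was 10.7 (5.75 to 19.9; limma adjusted p = 0.0164), with folds of 17.4 within A and B and 6.57 within D and E. The size depends on the pseudocount: the log2 fold change was 2.29 with 1 and 4.27 with 0.1, and the mean FPKM of the groups differed 24.6-fold.

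Steap3 (chromosome 1, 120190757 to 120272705, minus strand), the endosomal ferrireductase of erythroid transferrin uptake in mice, was at 1.84, 2.80 and 2.94 FPKM in IL-36β libraries, against 2.25, 2.77 and 3.33 FPKM in untreated libraries. The groups overlapped throughout, with a fold of 0.92 (0.67 to 1.26; limma adjusted p = 0.834). In both groups the replicate 1 library was the lowest. Steap4 was above Steap3 only in IL-36β replicates 1 and 2, at 7.82 and 1.01 times its FPKM, and stood at 0.929 times in IL-36β replicate 3, against 0.312, 0.0395 and 0 times in untreated libraries. Of their relatives Steap1 and Steap2 neither passed, with folds of 1.33 and 1.07 (limma adjusted p = 0.578 and 0.919).

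**Figure D2:**
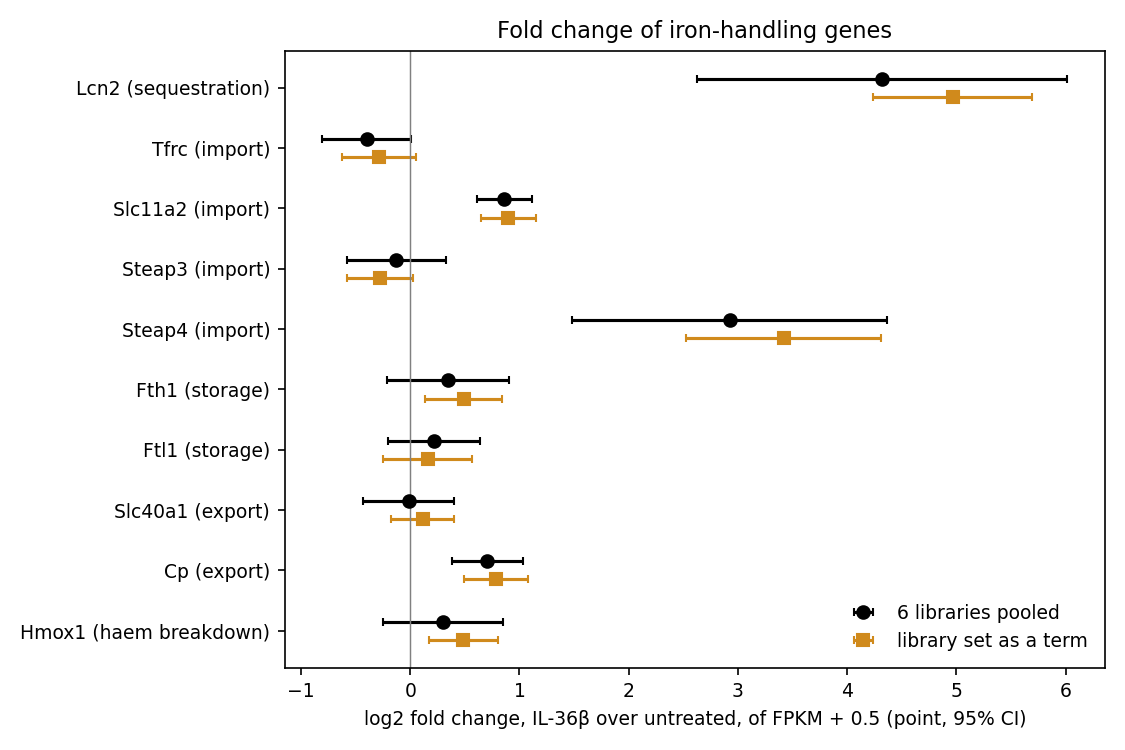
Log2 fold change of IL-36β over untreated for FPKM + 0.5, with 95% confidence intervals, for the 10 genes with all 6 libraries pooled (black circles) and with the library set as a term (orange squares). Lcn2, Steap4, Slc11a2 and Cp lie to the right of 0 with both; the pooled intervals of the other 6 genes include 0.

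Ferritin was the most abundant iron-handling transcript in both groups. Fth1 (chromosome 19, 9982703 to 9985092, plus strand) ranked first of all genes by FPKM in 5 libraries and second in untreated replicate 3, and took 0.376 to 0.734% of the reads of a library. It was at 8286, 5466 and 5586 FPKM in IL-36β libraries, against 5163, 5507 and 4363 FPKM in untreated libraries. IL-36β replicates 1 and 3 were above every untreated library, replicate 3 only just, and IL-36β replicate 2 was within the untreated range. The fold was 1.27 (0.86 to 1.87; limma adjusted p = 0.637), 1.55 within A and B and 1.27 within D and E, and with the library set as a term it was 1.40 (1.10 to 1.79; limma adjusted p = 0.237).

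Ftl1 (chromosome 7, 45457944 to 45459884, minus strand) was at 882, 792.5 and 1125 FPKM in IL-36β libraries, against 679.5, 835 and 883 FPKM in untreated libraries. The groups overlapped, with a fold of 1.16 (0.87 to 1.55; limma adjusted p = 0.695). Heavy chain transcripts exceeded light chain transcripts in every library, by 7.09 ± 2.22 times in IL-36β libraries and 6.38 ± 1.34 times in untreated libraries. The spread within each group was larger than the difference between them. Ferritin genes have near-identical processed copies, among which the counting could split reads: Ftl1-ps1 was at 14.3 to 26.7 FPKM in IL-36β libraries and at 15.6 to 20.7 FPKM in untreated libraries, far below Ftl1 itself. Of the Fth1 copies, Fth-ps2 and Fth-ps3 had at most 0.287 FPKM in any library. The values of Fth1 and Ftl1 are uncertain, since the effect of reads that match several copies was not tested. Ftl1 also overlaps Gm10252 on the opposite strand, which was at 0.198 to 0.585 FPKM in IL-36β libraries and 0.860 to 1.18 FPKM in untreated libraries.

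On the export side, Cp did not overlap between the groups and Slc40a1 did. Cp (chromosome 3, 19957054 to 20009145, plus strand), whose product oxidises iron as it leaves the cell, was at 39.9, 36.6 and 29.3 FPKM in IL-36β libraries, against 20.4, 24.0 and 19.6 FPKM in untreated libraries. All IL-36β libraries were above all untreated libraries. The fold was 1.63 (1.31 to 2.04; limma adjusted p = 0.140), 1.79 within A and B and 1.66 within D and E. Cp passed in DESeq2 (adjusted p = 5.46e-04), while limma with the library set as a term just missed the threshold (adjusted p = 0.0512). Part of Cp overlaps Hps3 on the opposite strand, and whether counting used the strand is not stated in the sources used here. Hps3 was at 2.75 to 3.33 FPKM in IL-36β libraries and 3.14 to 3.49 FPKM in untreated libraries.

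Slc40a1 (chromosome 1, 45908068 to 45926523, minus strand), the only known cellular iron exporter of mammals, was at 5.41, 4.37 and 4.60 FPKM in IL-36β libraries, against 6.00, 5.10 and 3.65 FPKM in untreated libraries. The untreated libraries spanned the IL-36β libraries, and the fold was 0.99 (0.74 to 1.32; limma adjusted p = 0.985). Its direction was not fixed: Slc40a1 was at 0.98-fold within A and B and 1.20-fold within D and E. Heph, a ferroxidase related to Cp, was at 2.84 and 2.77 FPKM on average in IL-36β and untreated libraries (fold 1.03; limma adjusted p = 0.942). Hamp, which encodes the hormone hepcidin that removes ferroportin from the membrane, had no read in any library.

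Hmox1 (chromosome 8, 75093621 to 75100589, plus strand) was among the most abundant transcripts in both groups. It was at 1149, 705 and 825 FPKM in IL-36β libraries, against 718, 884 and 561 FPKM in untreated libraries. The groups overlapped, and the lowest value of all was untreated replicate 3. The pooled fold was 1.23 (0.84 to 1.81; limma adjusted p = 0.676). Hmox1 was 1.44-fold higher within A and B and 1.36-fold higher within D and E, and 1.40-fold with the library set as a term (1.12 to 1.74; limma adjusted p = 0.205). Other targets of NRF2, a transcription factor known to drive Hmox1, were listed as well. Of these 10 genes 0 passed in limma, edgeR or DESeq2, where 0.182%, 0.293% and 2.06% of all genes tested passed. An unadjusted limma p under 0.05 was reached by 0, against 10.4% of all genes tested. With the library set as a term 0 passed as well, where 0.808% of all genes tested did. In that fit Nqo1, Slc7a11 and Gsr, all higher, had unadjusted limma p of 0.0067, 0.0107 and 0.0142, where 1717 of all 12618 genes were under 0.05. The median log2 fold change of the 10 NRF2 targets was 0.11, against 0.0023 over all genes tested.

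**Figure D3:**
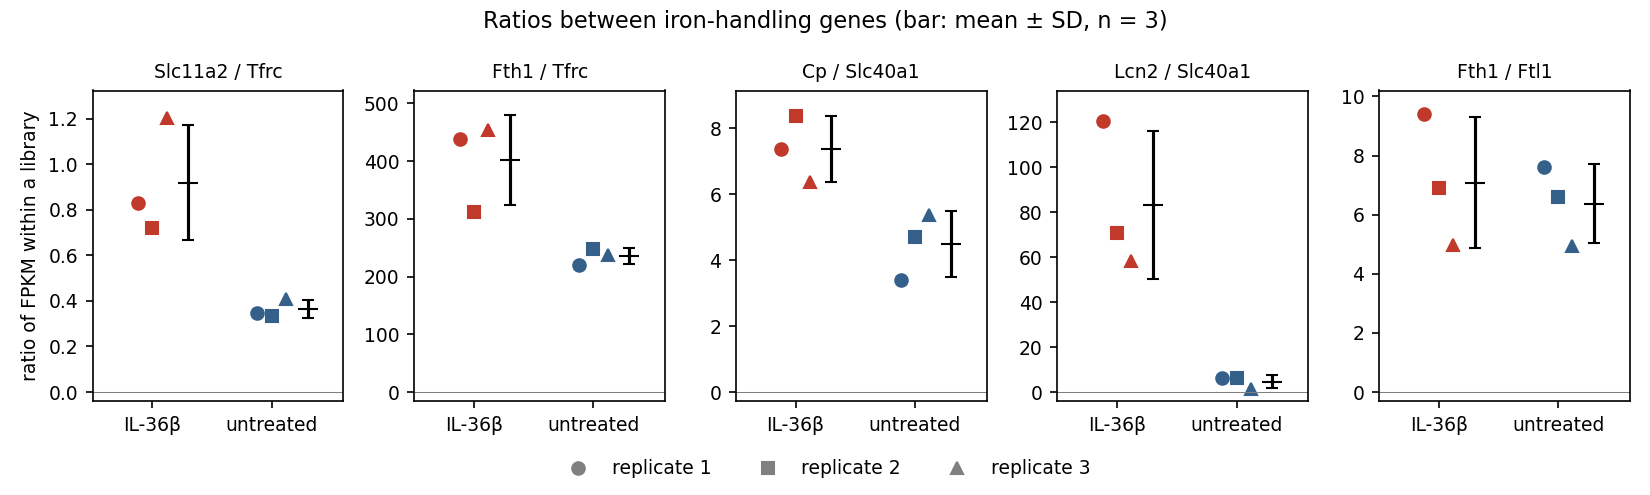
Ratios of FPKM between pairs of iron-handling genes within each library, IL-36β left and untreated right, on linear axes with a grey line at 0 (symbols: replicates 1 to 3; bar: mean ± SD, n = 3). Slc11a2 to Tfrc, Fth1 to Tfrc, Cp to Slc40a1 and Lcn2 to Slc40a1 do not overlap between groups, and Fth1 to Ftl1 does.

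Ratios within a library set the roles against each other. Lcn2 was at 83.3 ± 32.9 times the FPKM of Slc40a1 in IL-36β libraries and 4.63 ± 2.82 times in untreated libraries. Cp was at 7.38 ± 1.00 times Slc40a1 in IL-36β libraries and 4.49 ± 1.00 times in untreated libraries. Fth1 was at 401 ± 78.1 times Tfrc in IL-36β libraries and 235 ± 13.5 times in untreated libraries (SD, n = 3 each throughout). These ratios were higher in all IL-36β libraries than in all untreated ones. Import to export ratios depended on the import gene. Slc11a2 to Slc40a1 was 3.01 ± 0.186 in IL-36β libraries and 1.62 ± 0.375 in untreated libraries, without overlap, and Tfrc to Slc40a1 was 3.40 ± 0.676 in IL-36β libraries and 4.43 ± 0.563 in untreated libraries, with overlap. The ratios are given without a test, since 3 libraries against 3 cannot go below p = 0.1 in an exact permutation test and the pairs were picked with their values known.

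The role groups were not uniform. Of the 4 import genes 1 rose and 3 did not pass, with fold changes of both signs (median log2 fold change 0.37). The export pair had a median of 0.35 made of 1 value near 0 and 1 of 0.71. The storage pair had a median of 0.28. The median over the 10 genes was 0.32, against 0.0023 over all genes tested. With the library set as a term 3 of the 10 passed, Lcn2, Slc11a2 and Steap4, all higher, where 0.808% of all genes tested passed and 0.674% passed as higher. Steap4 met the filter on low values through the group where it is high, so its call adds nothing to that count. DESeq2 on the recovered reads called Lcn2, Slc11a2 and Cp, all higher, where 2.06% of all genes tested passed and 1.27% passed as higher. In edgeR Slc11a2 alone passed, where 0.293% of all genes tested passed and 0.262% passed as higher.

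A wider list of 80 iron genes outside the 10 was read by role, and 65 of them were tested. No gene passed in limma or edgeR, where 0.182% and 0.293% of all genes tested passed. An unadjusted limma p under 0.05 was reached by 12 of the 65, against 10.4% of all genes tested. DESeq2 called Zc3h12a as higher and Smad7, an inhibitor of BMP and TGF-β signalling, as lower (fold 0.71 in limma; DESeq2 adjusted p = 0.0488), where it called 2.06% of all genes tested. The list median of 0.05 on the log2 scale lay close to that of all genes tested. With the library set as a term, Zc3h12a alone passed, where 0.808% of all genes tested did; it encodes the ribonuclease regnase-1, known in mice to degrade inflammatory mRNAs and that of Tfrc. Zc3h12a was at 8.54, 5.76 and 5.32 FPKM in IL-36β libraries, against 2.54, 1.68 and 0.925 FPKM in untreated libraries. The groups did not overlap; the fold was 3.27 pooled (2.04 to 5.23; limma adjusted p = 0.110) and 3.86 with the set term (2.95 to 5.04; limma adjusted p = 0.00593).

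**Figure D4:**
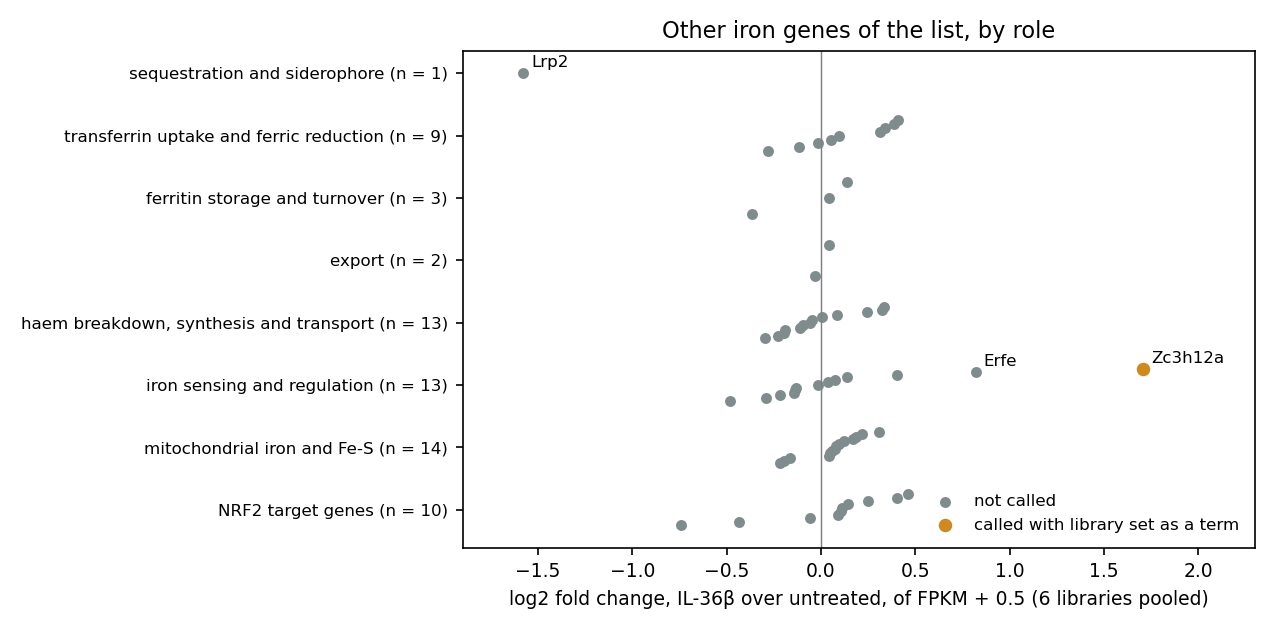
Pooled log2 fold change of IL-36β over untreated for FPKM + 0.5 of the 65 other iron genes that were tested, 1 point a gene, by role; orange marks the gene called with the library set as a term. Most lie near 0, with Zc3h12a at 1.71 and Lrp2 at -1.58.

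For the other roles the most abundant gene stands as an example. Ndfip1, an adaptor that targets DMT1 for degradation, was at 311 ± 38.1 FPKM in IL-36β libraries and 239 ± 35.3 FPKM in untreated libraries (SD, n = 3 each; fold 1.31; limma adjusted p = 0.447). Pcbp1, an iron chaperone that loads ferritin, was at 119 ± 13.6 and 107 ± 4.04 FPKM in IL-36β and untreated libraries (fold 1.10; limma adjusted p = 0.678). Slc48a1, an endosomal haem transporter, was at 90.9 ± 12.3 and 72.3 ± 6.55 FPKM in IL-36β and untreated libraries (fold 1.25; limma adjusted p = 0.454). None of these passed. Cisd1, a mitochondrial iron-sulphur protein, and Srxn1, an antioxidant NRF2 target, did not pass either, with folds of 1.09 and 1.08 (limma adjusted p = 0.641 and 0.887). App, which has been linked to ferroportin at the membrane, had a fold of 0.98 (limma adjusted p = 0.940).

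By Pearson correlation of log2(FPKM + 0.5) over the 6 libraries, the genes closest to Lcn2 were Ccl7 (r = 0.999), Nfkbiz (0.999), Ccl2 (0.993), Tmem132e (0.993) and Cxcl1 (0.992). Ccl7, Ccl2 and Cxcl1 encode chemokines, and Nfkbiz encodes IκBζ, a nuclear cofactor of NF-κB. Like Lcn2, these genes had their lowest level in untreated replicate 3. The genes closest to Slc11a2 were Pcbd2 (r = 0.997), Ndufb7 (0.996), Pqbp1 (0.995), Ext1 (0.994) and Irak2 (0.994), whose untreated libraries lay close together. The points share the 6 libraries and 1 treatment step, and 224 of 12617 other genes had r above 0.9 with Lcn2 and 327 with Slc11a2, so this is a description only.

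Promoter sequence of Lcn2 and Steap4 is shown because these genes had the largest fold changes. RefSeq's table for GRCm38.p6 matched 7 of the 10 genes. The 250 bases before the RefSeq start were searched on both strands. What is printed is the longest stretch of each window outside the gene's exons in GENCODE M21, 53 bases for Lcn2 and 235 for Steap4. The Lcn2 stretch lies inside the gene span given above, between annotated exons, so there it is intron sequence. The Steap4 stretch ends just before its gene span. Capitals mark matches to a loose NF-κB motif (GGG and CC parted by any 5 bases), TTGCNNAA (C/EBP) or TTCNNNGAA (STAT). These motifs, and TGACNNNGC (antioxidant response), were chosen with the expression results known.
Lcn2, chr2:32387798-32387850, minus strand: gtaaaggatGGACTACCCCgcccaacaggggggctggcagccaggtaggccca
Steap4, chr5:7960222-7960456, plus strand: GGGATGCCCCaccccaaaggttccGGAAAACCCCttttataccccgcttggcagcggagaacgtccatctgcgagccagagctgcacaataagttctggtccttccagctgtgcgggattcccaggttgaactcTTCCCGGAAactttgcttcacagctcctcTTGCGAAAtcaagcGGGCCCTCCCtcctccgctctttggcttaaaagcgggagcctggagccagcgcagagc
The stretch of Lcn2 holds 1 NF-κB match, and its window has a C/EBP match outside the stretch. Steap4 holds 3 NF-κB matches, 1 STAT match and 1 C/EBP match, and no marked matches overlap. Of 32851 RefSeq windows of this length 45.8% hold the loose NF-κB motif, 9.56% the C/EBP motif, 7.02% the STAT motif and 10.2% the antioxidant motif, which neither gene's window held. All 7 matched genes had a window with the loose NF-κB motif, among them Steap3 and Tfrc, with folds of 0.92 and 0.76. Windows of Steap3, Fth1 and Cp also held the C/EBP motif. The matches therefore do not set Lcn2 and Steap4 apart from genes without a rise. A match is a description of the letters and not a binding site.

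The authors' deposited table of differing genes lists 660 of the 54532 genes. Of the 10 it lists 4, Lcn2, Slc11a2, Fth1 and Cp, all with a positive sign. The share of its genes with a positive sign is not given here. Its p-values for them were 0.0257, 0.00782, 0.0450 and 0.0489, in that order. Its adjusted p was 0.999 for all of its 660 genes, these 4 included, and its unadjusted p was at most 0.04995. No gene of that table therefore passed adjustment. It also holds 8 per-library columns that match no sample here, and which libraries gave its p-values was not established. In the authors' deposited gene ontology table, iron ion homeostasis held 8 of 365 genes they list as higher, these 4 among them. It held 73 of the 15819 genes of their background (their adjusted p = 0.00602). That p-value takes the list as given, and these 4 genes did not pass adjustment in the first table. Of the 13 terms naming iron or haem with any of the 10, 2 had the authors' deposited adjusted p under 0.05 and 11 above 0.2. Cellular iron ion homeostasis was among these 11, with 2 of 365 genes against 43 of 15819 in the background (the authors' deposited adjusted p = 0.537). The other 6 iron-handling genes, Steap4 included, are not among the 660 genes of the first of these tables.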

How the data were processed

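RNA of the 6 libraries was prepared with a stranded kit for mRNA and run on a NextSeq, per the labels' protocols. Tools named in the submitters' processing notes are fastp, HISAT2 2.05, StringTie, featureCounts 1.50-p3 and DESeq2 1.38.3, with build GRCm38; their settings are not stated there. An FPKM table of 54532 genes and raw counts for 660 of them were deposited. For those 660 genes the authors also deposited normalized counts, a signal scale in which each library's counts are divided by its size factor. The same table holds the authors' log2 fold change and group means, made in a way not stated. Those means were over 1% away from the 3-library means of 594 genes (IL-36β) and 573 genes (untreated), so only the signs of the fold changes were used. The authors' deposited p-values, in that table and in a gene ontology table, were copied as given. The table's 8 other per-library columns match no sample here and were not used.

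Multiplying FPKM by gene length and rescaling once per library turned 100% of the 113149 values above 0 into whole reads (within 0.01), identical to the deposited counts wherever both exist. The rescaling factor was the same multiple of the library's size factor in all 6 libraries, so the FPKM is scaled by size factors.

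Testing used limma 3.58.1 in R 4.3.3 on log2(FPKM + 0.5), with a mean-dependent prior, two-sided. The filter asked for an FPKM of 0.5 or more in 3 libraries of 6 and left 12618 genes, over which p-values were Benjamini-Hochberg adjusted. The procedure was tested on simulated libraries. Alternatives included edgeR 4.0.16 and DESeq2 1.42.0 on the recovered reads, the library set as a term, 2 replicate blocks and leaving out each library. The genes, the lists and the tests were chosen with earlier results of these data known. Named genes were the 10, listed iron genes past the threshold (pooled or with the set term) or else the most abundant of their role, and the 5 closest patterns each to Lcn2 and Slc11a2. Further ones (Slc22a17, Heph, Hamp, Steap1, Steap2, Smad7, Slco1c1, Mfsd2a, Tek, Flt1, Myh11, Cnn1, Rgs5, Abcc9, Vtn and those of the closing section) were picked with their values known. One list symbol was matched through an older name.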

Additional observations from a re-analysis of the deposited data

How the results depend on the processing

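The 23 genes called and the 1 of the 10 iron-handling genes called became 15 and 0 with TPM scaling (5 of the 10 at an unadjusted p under 0.05, against 1449 of all 12618 genes), 102 and 3 with the library set as a term, and 260 and 3 with DESeq2; edgeR called 37 and 1. Without a filter on low values limma called 0 and 0 (1751 and 4 at an unadjusted p under 0.05), with 23998 genes tested, and Slc11a2 was at an adjusted p of 0.121. Leaving out 1 library gave 2 to 8 genes called, and 0 of the 10 each time, with 4 to 5 at an unadjusted p under 0.05, against 711 to 1645 of all genes. Of the other listed iron genes limma called 0, and 1 with the set term and 2 with DESeq2.

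Correlations of deviations from the group means were 0.207, -0.141 and 0.211 for libraries of the same title number, and 0.207 and 0.275 for those of the same letter. Deviations from a mean of 3 libraries depend on each other, so these values cannot settle whether libraries are paired. A replicate block by title number called 13 genes, Steap4 among them (adjusted p = 0.0357) and Slc11a2 not (0.0750), and 1 other listed iron gene. A replicate block by library letter (A and D only) called 81 genes, Lcn2, Steap4 and Cp of the 10 but not Slc11a2 (0.0520), and 2 other listed iron genes. Steap4 met the filter on low values through the group where it is high, so its calls here and with the set term add nothing to the counts.

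The log2 fold change of Slc40a1 changed sign with the block by letter (0.046), with the set term (0.12) and without single libraries (-0.19 to 0.13), and that of Steap3 without IL-36β replicate 1 (0.050; -0.25 to 0.050 over single libraries left out). The cause was not tested. Directions of the other 8 genes held under all 20 alternatives. That of Steap4 ranged from 2.20 to 4.63 on the log2 scale, lowest without IL-36β replicate 1 and highest in edgeR, and its untreated libraries had 0 to 36 reads.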

Other observations

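Outside the 10 genes, 13 others had a strict iron-responsive element match in a UTR, among them Alas2, the erythroid enzyme of haem synthesis. Alas2 was near 0 in both groups, at 0.0348 FPKM in IL-36β and 0.0274 FPKM in untreated libraries on average. Of the 13 others 9 were tested (limma adjusted p of 0.405 to 0.989). None of the 9 passed in limma, edgeR or DESeq2, where 0.182%, 0.293% and 2.06% of all genes tested passed. An unadjusted limma p under 0.05 was reached by 1, against 10.4% of all genes tested. The lowest fold among the 9, 0.79, was that of Pdcd4, a translation inhibitor, at 7.65 FPKM in IL-36β and 9.90 FPKM in untreated libraries. These genes were chosen after their values were seen.

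Of the 65 other listed iron genes, 11 had groups that did not overlap, a share near the 16.2% of all genes tested, and 3 of them are given as values. Ncoa4, the receptor that carries ferritin to lysosomes, was at 5.87 ± 0.0467 FPKM in IL-36β and 7.72 ± 0.633 FPKM in untreated libraries (SD, n = 3 each; fold 0.78; limma adjusted p = 0.265). Erfe, which encodes the iron hormone erythroferrone, was at 2.46 ± 0.959 and 1.14 ± 0.329 FPKM in IL-36β and untreated libraries (fold 1.77; limma adjusted p = 0.360). Bach1, a haem-sensing repressor of Hmox1, was at 3.45 ± 0.0975 and 4.36 ± 0.609 FPKM in IL-36β and untreated libraries (fold 0.82; limma adjusted p = 0.463). None of the 3 passed in limma, edgeR or DESeq2. All 3 were picked with their values known.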
